A study of Rattus norvegicus with 92 samples.

Results

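The adipose-enriched rows of this rat data set are 105 of the 20508 rows that the 8 tissue tables share. They were selected on the air libraries alone. A row was taken when its mean level in air-exposed adipose was at least 10 CPM (the row's share of its library, scaled so that each library adds up to the same total) and at least 5 times the air mean of each of the 7 other tissues. The adipose level in air and its fold over the other tissues in air therefore chose the members, and both are given here as description with no test. The members make up 0.512% of the rows. Of the 105, 104 are listed under an Ensembl transcript identifier and 1 under a gene identifier. The tables do not pair identifiers with gene symbols, so members are named by identifier and their protein products are not stated. CPM is not corrected for transcript length, so the order of members within a library is an order of reads.

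RNA was sequenced from 8 tissues of Wistar-Kyoto rats, an inbred strain, in 92 libraries. The animals were males of 12 to 13 weeks. They inhaled filtered air or 3.16 ppm acrolein, a reactive aldehyde and airway irritant, for 4 h through the nose only. By the methods, the first part of the acrolein exposure stepped up through lower concentrations. Tissue was taken directly after the exposure. Adipose had 6 air libraries from 5 rats and 4 acrolein libraries from 4 rats. The other tissues were adrenal (6 air, 4 acrolein), hippocampus (6 and 6), hypothalamus (6 and 6), liver (5 and 6), lung (8 and 6), muscle (6 and 6) and nasal epithelium (5 and 6). The labels call the fat simply adipose, with no depot, and each library stands for 1 bulk tissue piece.

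White adipose tissue stores triglyceride in large lipid droplets within adipocytes, and it releases fatty acids and glycerol when catecholamines or glucocorticoids rise. Besides adipocytes it holds preadipocytes, vessels, fibroblasts and immune cells, and it secretes hormones such as leptin and adiponectin. Genes that are used far more in fat than elsewhere usually serve lipid uptake, triglyceride synthesis, droplet coating or hormone secretion, although several of these are also active in liver, muscle or the adrenal cortex.

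Sequencing depth, recovered from the step size of the deposited values, ran from 2513375 to 30194066 reads per library over all tissues, and from 2513375 to 13854459 in adipose. The shallowest adipose library was one of the pair of air libraries that carry the number 8. Averaged to 1 rat, this pair stood apart from the rest of the adipose libraries. Its correlations with them on the log2(CPM + 1) scale, over the 9025 rows with an adipose air mean of at least 10 CPM, ran from 0.782 to 0.918, while the other 8 rats correlated at 0.848 to 0.975 with each other. The pair itself had nearly equal values (r = 0.985 on the same scale, over rows with a mean deposited value of at least 10 in adipose). The departure was therefore shared by both libraries in these rows. The median spread among adipose rats, the number of members and the adipose exposure counts are given with and without air rat 8. The adipose air means, folds and next-tissue counts include it.

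The 105 members spanned more than 3 orders of magnitude in air-exposed adipose, from 11.3 to 27513 CPM, with a median of 140.9 CPM. A total of 14 members were at 1000 CPM or more, 48 lay from 100 to under 1000 CPM, and 43 lay from 10 to under 100 CPM. The reads were concentrated in a few rows. The 3 highest members held 54.1% of the summed member level in air and the 10 highest held 78.3%.

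The highest member was ENSRNOT00000014180. Its adipose level was 25030, 36184, 30290, 28217 and 17844 CPM in air rats 1, 2, 5, 7 and 8, and 32105, 25485, 18905 and 35468 CPM in acrolein rats 10, 12, 14 and 15. The groups overlapped, with the lowest value in air rat 8 and the highest in air rat 2. This member alone made up 2.75% of an average air-exposed adipose library. The next was ENSRNOT00000016543, with 13125, 19462, 24095, 12836 and 28147 CPM in air and 22884, 22336, 18645 and 25389 CPM in acrolein. ENSRNOT00000018447 was the third, with an air mean of 10533 ± 3941 CPM (SD, n = 5) and an acrolein mean of 9325 ± 1325 CPM (SD, n = 4). For both of these the air rats were spread more widely than the acrolein rats, and the ranges overlapped.

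The other 7 of the 10 highest had air means between 2150 and 6884 CPM. ENSRNOT00000014701 had 6884 ± 1502 CPM, ENSRNOT00000002492 4426 ± 637 CPM and ENSRNOT00000063941 3574 ± 1920 CPM (SD, n = 5). The last was at 6955 CPM in air rat 8, against 2338 to 3067 CPM in air rats 1, 2, 5 and 7. ENSRNOT00000076573 had 3165 CPM, ENSRNOT00000016540 3081 CPM, ENSRNOT00000031704 2396 CPM and ENSRNOT00000025319 2150 CPM. Their profiles over the other tissues differed. ENSRNOT00000002492 had air means of 114 CPM in adrenal, 19.7 CPM in muscle, 7.02 CPM in lung and at most 2.96 CPM in the other tissues. Its muscle mean was 3.57 CPM without air rat 5, and its lung mean 1.97 CPM without air rat 8. ENSRNOT00000025319, in contrast, was measured in every tissue, from 22.6 CPM in hippocampus to 302 CPM in adrenal.

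**Figure D1:**
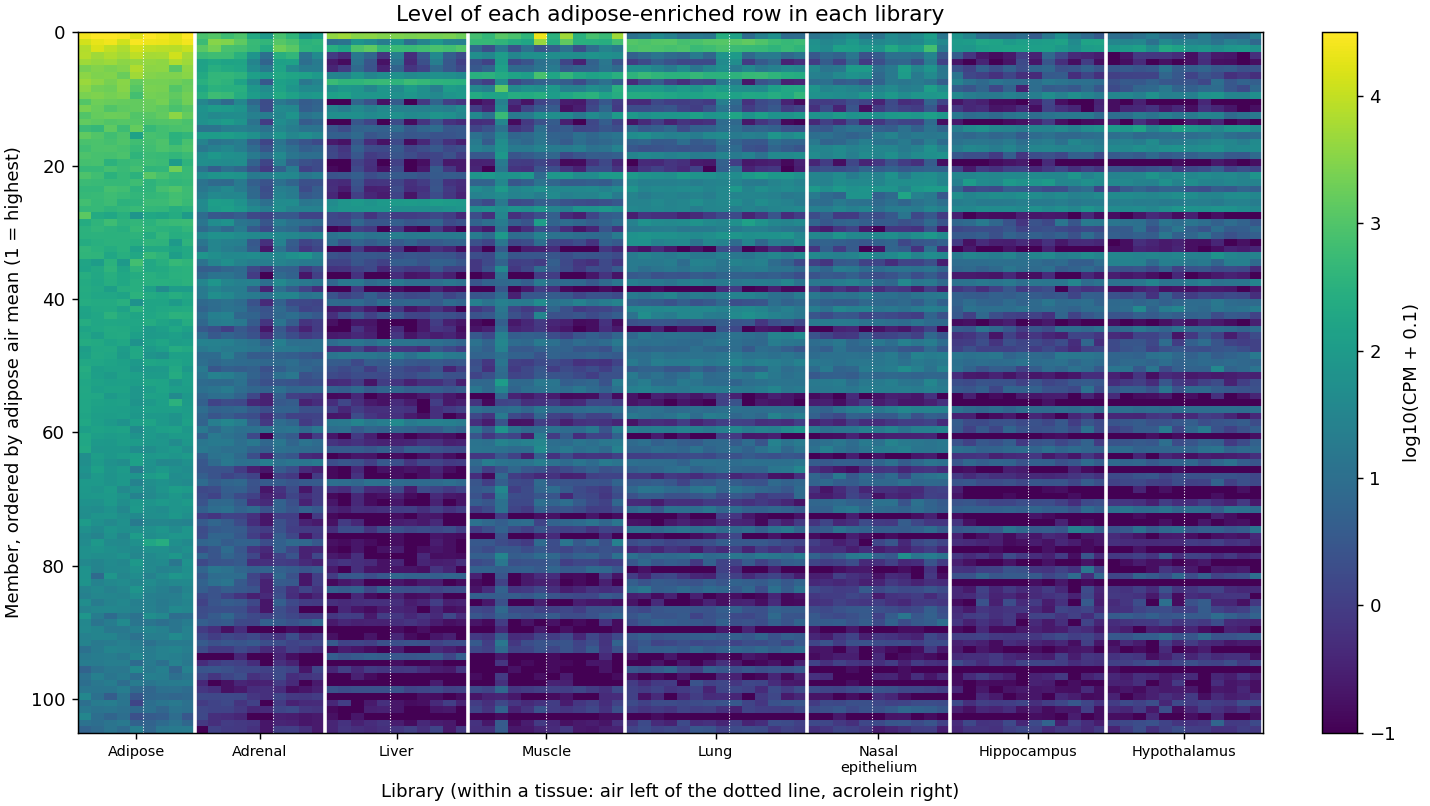
Level of each of the 105 members (1 line each, ordered by adipose air mean) in each library, as log10(CPM + 0.1), with libraries grouped by tissue and air to the left of each dotted line. Adipose columns fade from the top line to the bottom one, by the ordering. The adrenal columns vary together from line to line, and 2 muscle columns stand out, 1 over most lines (air rat 5) and 1 in the top lines (air rat 8).

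The members varied slightly more among adipose rats than rows of 10 CPM or more did as a whole. The members were chosen on air means, so rows carried over the limits by 1 high air rat are favoured. The comparison is therefore description only. ENSRNOT00000001686, for example, had 33.1 CPM in air rat 1 and 2.11 to 9.51 CPM in the other air rats. Over the 9 rats, the coefficient of variation of a member had a median of 33.6% and ran from 16.2% to 122%, against a median of 27.3% over the 9025 rows with at least 10 CPM. Without air rat 8 the medians were 30.4% for members and 23.1% for those rows. A coefficient above 50% was seen in 13 members (12.4%), and in 8.27% of the rows.

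The most variable member, chosen after its values were seen, was ENSRNOT00000015029. It had 1290 CPM in air rat 1, 232, 183, 300 and 72.2 CPM in air rats 2, 5, 7 and 8, and 189, 161, 237 and 101 CPM in the acrolein rats. Air rat 1 was the high library here, and 12 members were over 2-fold above the median of the other rats in it, with 3 over 2-fold below. Rows enriched in muscle by the same rule summed to 10260 CPM in this library, against 3427 to 4463 CPM in the other 8 rats. In air rat 8, 10 members were over 2-fold higher and 15 over 2-fold lower than the median of the other rats. In acrolein rat 14, 4 were higher and 10 lower. Rows as a whole departed in these libraries too. The median absolute log2 departure was 0.50 for members and 0.32 for all rows in air rat 1. It was 0.62 and 0.57 in air rat 8, and 0.47 and 0.40 in acrolein rat 14. The 2-fold counts are therefore not read as particular to the members. In acrolein rat 10, rows enriched in lung summed to 8622 CPM, against 3475 to 4162 CPM in the other rats, and rows enriched in liver to 5715 CPM, against 1990 to 3058 CPM. Whether tissue carried over from another organ had a part in the member values of air rat 1 and acrolein rat 10 was not tested.

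Which tissue came second in air was uneven. The adrenal was the next-highest tissue for 38 of the 105 members, the lung for 25, muscle for 14, the hypothalamus for 10, and liver and nasal epithelium for 8 each. The hippocampus was next for 2. The muscle count rested largely on air rat 5, without which muscle was next for 7 members, adrenal for 41 and lung for 28. Without muscle air rat 8 it was next for 14. The median fold of adipose over the next tissue was 9.37 and the largest was 94.8. A fold of at least 10 was reached by 47 members, at least 20 by 16, and at least 50 by 6. Of those 6, 5 had the adrenal as the next tissue. ENSRNOT00000080635 had an adipose air mean of 582 CPM and a fold of 94.8, and ENSRNOT00000071926 had 1573 CPM and a fold of 92.1.

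The groups by next tissue differed in their usual fold. The 38 members next to adrenal had a median fold of 15.4, those next to hypothalamus 11.7, and those next to lung, muscle and liver 7.70, 7.97 and 6.55. The highest member of the hypothalamus group was ENSRNOT00000072698, at 915 CPM in adipose and 92.7 CPM in hypothalamus. In the nasal group it was ENSRNOT00000088385, at 520 and 72.5 CPM. In the liver group it was ENSRNOT00000016540, at 3081 CPM in adipose and 471 CPM in liver. Since these levels come from tables that were normalized separately, the folds between tissues carry no test.

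Most members were low rather than undetected elsewhere. The mean level was under 1 CPM in air for 58 members in liver, 52 in hippocampus, 45 in hypothalamus, 34 in nasal epithelium, 29 in lung, 22 in muscle and 11 in adrenal. In all 7 of these tissues at once it was under 1 CPM for 4 members. At most 3 reads in every library of the tissue were found for 11 members in liver, 11 in hypothalamus, 9 in hippocampus, 6 in nasal epithelium, 3 in lung, 2 in muscle and 0 in adrenal. In the shallowest library of these tissues, 3 reads stand for between 0.199 CPM (muscle) and 0.45 CPM (adrenal), so values near 1 CPM rest on few reads, and these limits cover counting error only. In the adrenal, 93 of the 105 members had reads in all 10 libraries.

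The thresholds cut through a continuous range. Just inside the 5-fold limit were ENSRNOT00000074047 (5.13-fold), ENSRNOT00000026925 (5.16-fold), ENSRNOT00000001874 (5.21-fold), ENSRNOT00000028483 (5.24-fold) and ENSRNOT00000118467 (5.24-fold). Just outside were ENSRNOT00000005198 (4.99-fold), ENSRNOT00000038822 (4.94-fold), ENSRNOT00000116202 (4.86-fold), ENSRNOT00000092623 (4.84-fold) and ENSRNOT00000014552 (4.84-fold). At the level limit, ENSRNOT00000102468 (11.3 CPM), ENSRNOT00000066880 (11.3 CPM), ENSRNOT00000001686 (12.1 CPM), ENSRNOT00000014623 (12.2 CPM) and ENSRNOT00000060210 (13.1 CPM) were inside. ENSRNOT00000025220 (9.47 CPM), ENSRNOT00000029210 (9.25 CPM), ENSRNOT00000074555 (8.15 CPM), ENSRNOT00000096344 (7.53 CPM) and ENSRNOT00000055447 (6.91 CPM) were outside. A further 146 rows with at least 10 CPM in adipose missed the 5-fold limit against exactly 1 tissue, which was the lung for 49, liver for 29, adrenal for 26 and muscle for 21 of them.

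To see whether the enrichment was also present in libraries the rule had not used, the same measure was taken in the 44 acrolein libraries (4 adipose, 40 other). Adipose was the highest tissue for all 105 members there. The full rule, at least 10 CPM and at least 5-fold over each other tissue, was met by 87 of the 105 (82.9%). The median fold over the next tissue was 9.55 and the range was 2.38 to 198. In 100 of the 105 members each of the 4 adipose acrolein libraries was above each of the 40 acrolein libraries of other tissues.

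Of the 18 members that did not meet the rule in acrolein libraries, 15 were under 5-fold and 4 under 10 CPM, with 1 of them counted in both. Their median fold in air had been 6.33, so most lay close to the limit at the start. The nasal epithelium was the next tissue in acrolein libraries for 9 of the 18, the lung for 4 and the adrenal for 3. Members next to adrenal in air met the rule in 36 of 38 cases and those next to lung in 20 of 25, while those next to nasal epithelium did so in 4 of 8. The lowest fold was that of ENSRNOT00000014623, 5.67 in air and 2.38 in acrolein libraries, with nasal epithelium next in both. The same rule applied to the acrolein libraries alone gave 108 rows, of which 87 (80.6%) were members.

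**Figure D2:**
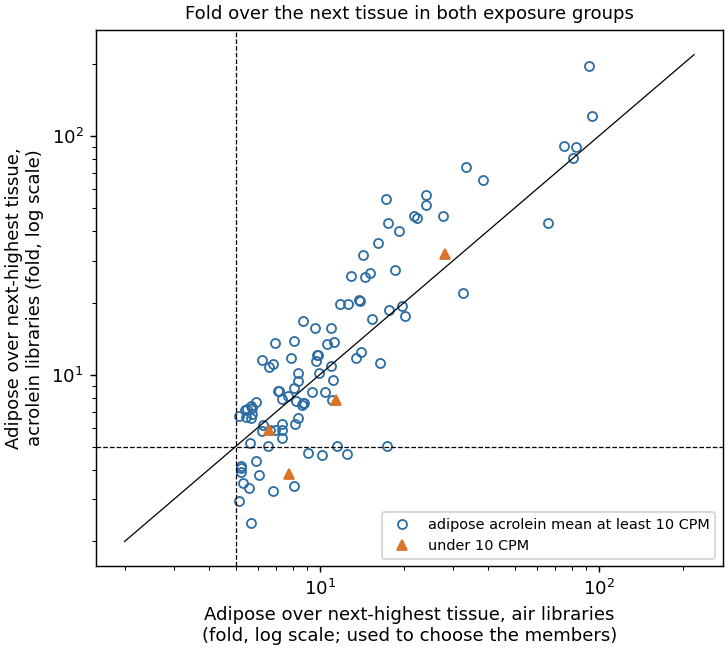
Fold of adipose over the next-highest tissue in air libraries, which chose the members, against the same fold in acrolein libraries, 1 point per member, both axes on a log scale, with the 5-fold limits dashed and the line of equality solid. All 105 points lie right of 5 by the rule, 15 lie under 5 in acrolein libraries, and the lowest of them is at 2.38.

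The members were next summed within each library as a level of the whole group. In adipose the sum was 92901 to 118449 CPM in the 5 air rats (mean 106359 ± 9848, SD) and 97616 to 116931 CPM in the 4 acrolein rats (106175 ± 8540), so the groups overlapped fully and about 1 read in 10 came from a member. In the other tissues the sum was far lower and its spread differed by tissue. It ran from 3151 to 4119 CPM in air lung and from 2715 to 3783 CPM in acrolein lung. In hippocampus all 12 libraries lay between 702 and 977 CPM, and in hypothalamus between 713 and 1030 CPM. Nasal epithelium ran from 877 to 1337 CPM in air and from 922 to 2498 CPM in acrolein. In these bulk samples, fewer cells of a type and less RNA per cell cannot be told apart.

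In the adrenal the members varied together over several libraries, while in muscle a broad shift was seen in 1 library (air rat 5, below). The adrenal sum was 5665, 11111, 8743, 6097, 2356 and 1387 CPM in air rats 2, 3, 5, 6, 7 and 8, and 6230, 4354, 1560 and 1631 CPM in acrolein rats 9, 10, 11 and 12. The groups overlapped, and the highest and the lowest library, which differed 8.01-fold, were both air. The spread ran across the list rather than a few rows. In air rat 3, 53 of the 94 members with at least 1 CPM in adrenal were at least 2-fold above the median of the other adrenal libraries, whereas 5.08% of the 14217 rows at that level were. In air rat 5 it was 58 of 94 members and 10.3% of the rows. The median member stood at 7.74% of its adipose level in air rat 3 and at 1.03% in air rat 8.

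The rows enriched in adrenal by the same rule (136 rows) summed to 162849, 109115, 108846, 146231, 137165 and 182560 CPM in adrenal air rats 2, 3, 5, 6, 7 and 8. In the acrolein rats they summed to 138380, 171168, 170994 and 196199 CPM. Air rats 3 and 5, with the most adipose-enriched reads, had the fewest adrenal-enriched reads. Air rat 7 went the other way, with a low member sum and the third-lowest adrenal-enriched sum. The part of tissue makeup in the adrenal levels of the members was not tested.

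Muscle held 2 libraries that stood apart in different ways. The summed level was 2371, 1961, 6023, 2011, 1533 and 29473 CPM in air rats 2, 4, 5, 6, 7 and 8, and 1581, 7910, 1656, 2172, 1816 and 7679 CPM in acrolein rats 9, 10, 11, 12, 14 and 15. In air rat 8, 92.8% of the sum came from the 2 highest members. ENSRNOT00000014180 was at 22936 CPM there, against a median of 723 CPM and a highest value of 5312 CPM in the other 11 muscle libraries, and it reached 83.4% of its adipose level. ENSRNOT00000016543 was at 4417 CPM, against a median of 317 CPM. ENSRNOT00000018447, the third by adipose level, was at 2.78 CPM, near the low end of the 1.87 to 28.2 CPM of the other libraries. Without the 2 highest, the members of this library summed to 2120 CPM, against a median of 1041 CPM and a range of 956 to 4421 CPM in the others, where the top value is that of air rat 5. The rest of the list was also somewhat raised. Of the 83 members with at least 1 CPM in muscle, 37 were at least 2-fold above the median of the other libraries, against 19.4% of rows, and the median ratio was 1.80 for members and 1.35 for rows. Rows enriched in muscle summed to 297849 CPM in this library, the lowest of the 12.

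In muscle air rat 5 the pattern was broad. A total of 75 of the 105 members were higher in it than in each of the other 11 muscle libraries, against 31.3% of the 12515 rows with at least 1 CPM. The 105 include members under 1 CPM in muscle, so these shares have unlike bases. Of the 83 members with at least 1 CPM, 62 were at least 2-fold above the median of the other libraries, against 25.7% of the rows. The median member was at 6.16% of its adipose level. In the other 11 libraries the median member was at 1.00% to 2.38%. Rows of some other tissues were high in this library too. Rows enriched in nasal epithelium summed to 5103 CPM, against 926 to 1403 CPM in the other 11, rows enriched in lung to 2751 CPM, against 695 to 1664 CPM, and rows enriched in liver to 1583 CPM, against 510 to 1118 CPM. Rows enriched in adrenal were slightly above the others (1316 CPM, against 951 to 1178 CPM). Those enriched in hippocampus and hypothalamus were within the range of the others. The rise was therefore not particular to the adipose-enriched rows, and the part of carried-over tissue in it was not tested. The 2 acrolein libraries with high sums, rats 10 and 15, were also high through their top rows. In these, 84.9% and 77.9% of the sum came from the 2 highest members, and ENSRNOT00000014180 was at 5246 and 5312 CPM, while the remaining 4 acrolein rats had 313 to 786 CPM.

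**Figure D3:**
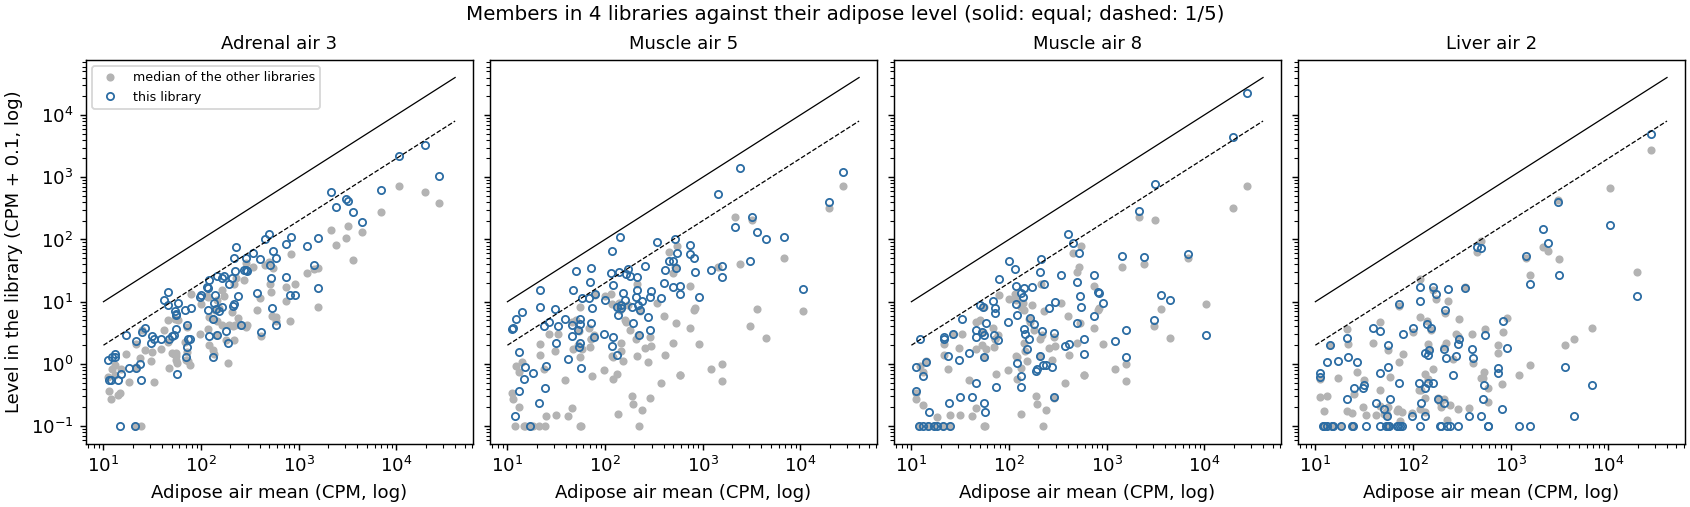
Level of each member in 4 single libraries (open circles, CPM + 0.1) and its median in the other libraries of that tissue (grey), against its adipose air mean, all on log scales. In adrenal air rat 3 and muscle air rat 5 most circles lie above the grey points, in muscle air rat 8 the largest gaps are at the 2 highest members, and in liver air rat 2 the top member is at 4931 CPM while most members are near the grey points.

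The liver sum was that of a few rows as well. It was 5177, 6169, 5552, 5917 and 4537 CPM in air rats 1, 2, 5, 7 and 8, and 3852 to 4471 CPM in the 6 acrolein rats. The groups were apart by a narrow gap, from 4471 to 4537 CPM. ENSRNOT00000014180 supplied most of it, with 3773, 4931, 3394, 3469 and 2875 CPM in the air rats and 1868 to 2769 CPM in the acrolein rats. In CPM its groups were just apart (2769 against 2875 CPM at the nearest), as in 2.09% of all 18769 rows tested in liver, but on the deposited values that were tested they overlapped, at 45866 in the highest acrolein rat and 45754 in the lowest air rat. Its log2 fold change, acrolein minus air, was -0.60 ± 0.22 (SE), with an unadjusted p of 0.0153 and an adjusted p of 0.171 by limma, so it did not pass. Without this row the liver sum was 1238 to 2448 CPM in air and 1668 to 1985 CPM in acrolein, and the groups overlapped. The median liver member was at 0.315% to 0.808% of its adipose level in air, with a mean of 0.433% that was the lowest of the tissues.

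**Figure D4:**
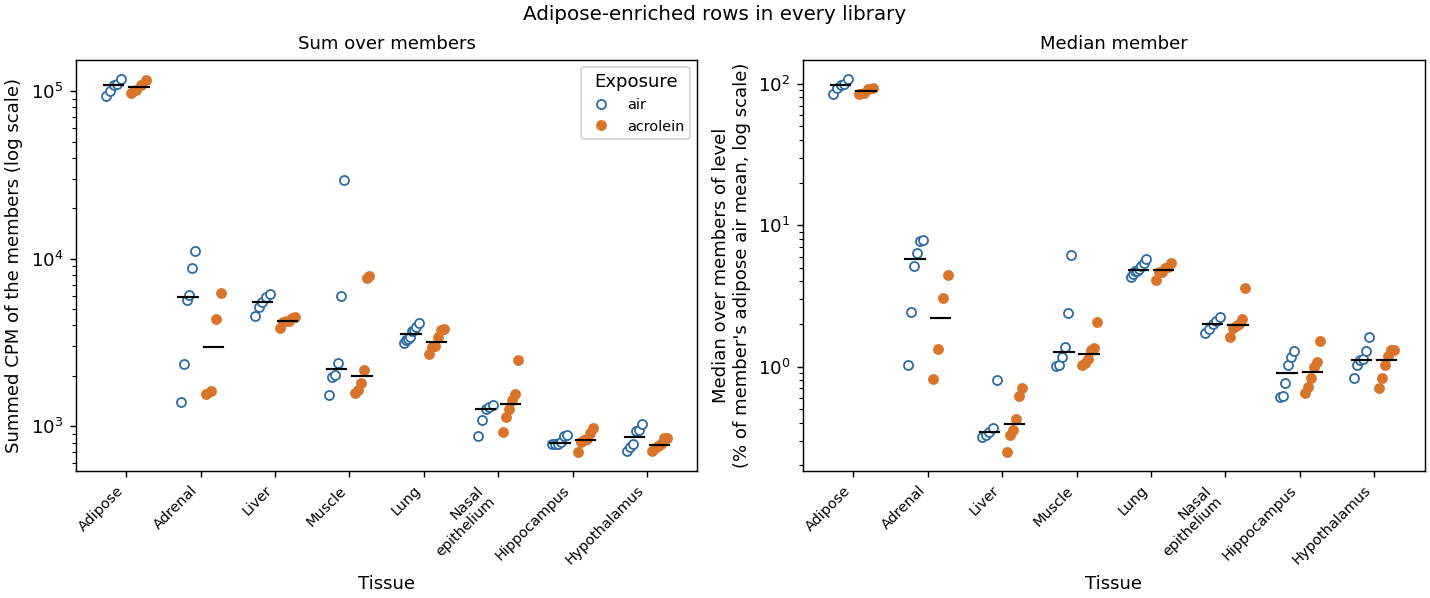
Left, summed CPM of the 105 members in each library; right, the median over members of their level as a percent of the member's adipose air mean. Both axes are log scales, open circles are air, filled circles are acrolein and bars are group medians. Muscle air rat 8 is high at left (29473 CPM) and muscle air rat 5 is high at right (6.16%), and the adrenal spreads widely in both.

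To test for an effect of acrolein on the members, each tissue table was fitted on its own with limma on log2(value + 1) over all rows that were above 0 in 2 or more libraries. A call needed a Benjamini-Hochberg adjusted p no higher than 0.1 together with a change of more than 1.2-fold in either direction. Since the members were chosen for a high level in air adipose and a low level in the other air tissues, lower values in acrolein adipose and higher values in the other acrolein tissues are favoured by the choice.

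In adipose, 0 of the 105 members were called by limma, and 0 of 19153 rows were called in all (0%). edgeR called 0 rows and DESeq2 called 1 row, which was not a member. At an unadjusted p under 0.05 there were 4 members (3.81%), all lower in acrolein, against 520 of all rows (2.71%), a share near that background. By edgeR 5 of the 105 members were under 0.05, against 3.79% of rows. By DESeq2 it was 10 of the 105, a larger share than the 3.16% of rows. The median log2 fold change of the members was -0.07, with 60 lower and 45 higher, against 0.00 over all rows. It was 0.01 for the 108 rows that the rule gives on acrolein libraries, with 53 lower. The smallest adjusted p of a member was 0.998. The standard error of a member's log2 fold change had a median of 0.31, and 16 of the 105 estimates were larger than 0.5 in size, from -1.23 to 1.01.

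Air rat 8 mattered for this count. Without it, 17 members (16.2%) had an unadjusted p under 0.05, 14 lower and 3 higher, while the share over all rows was 11.4%. Without it limma still called 0 members. Separation of the groups was rare. Only ENSRNOT00000118467 had groups that did not overlap, 1 of the 105 members, against 1.03% of all rows. It had 179, 88.7, 86.9, 113 and 104 CPM in air rats 1, 2, 5, 7 and 8 and 83.0, 76.0, 45.1 and 80.8 CPM in acrolein rats 10, 12, 14 and 15. Its log2 fold change was -0.66 ± 0.24 (SE), with an adjusted p of 0.998 by limma.

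The members with the smallest p in each direction are given by value. ENSRNOT00000016907 had 242, 204, 124, 265 and 284 CPM in the air rats and 133, 44.3, 109 and 109 CPM in the acrolein rats. Only air rat 5 lay within the acrolein range. Its log2 fold change was -1.23 ± 0.34 (SE), with an unadjusted p of 0.0035 and an adjusted p of 0.998 by limma. ENSRNOT00000006055 had 203, 123, 219, 233 and 125 CPM in air and 100, 105, 125 and 93.0 CPM in acrolein. Only air rat 2 lay within the acrolein range, and air rat 8 was just above it. Its log2 fold change was -0.72 ± 0.21 (SE), adjusted p = 0.998 by limma.

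In the opposite direction, ENSRNOT00000112072 had a log2 fold change of 0.46 ± 0.23 (SE) and ENSRNOT00000022364 one of 1.01 ± 0.50 (SE), both with an adjusted p of 0.998 by limma. The second had 44.3, 85.8, 43.2, 38.4 and 56.6 CPM in air and 184, 273, 54.6 and 41.2 CPM in acrolein. The 2 high values were those of acrolein rats 10 and 12, while rats 14 and 15 were within the air range. Without acrolein rat 10 the estimate was 0.76, and without acrolein rat 12 it was 0.54. In nasal epithelium the same row had normalized values of 16.4, 8.46, 3.12, 5.94 and 0 in air and of 28.1, 47.5, 5.19, 25.4, 33.9 and 21.4 in acrolein. Its log2 fold change there was 2.13 ± 0.71 (SE), adjusted p = 0.305 by limma, at a mean of only 0.40 CPM in air. In muscle it was 1.41 ± 0.61 (SE), adjusted p = 0.9999 by limma. The muscle normalized values overlapped, at 17.5 to 131 in air and 42.0 to 476 in acrolein. These 2 tissues had its largest changes. Elsewhere outside adipose it was -0.40 in hippocampus, -0.21 in liver, 0.19 in lung, 0.38 in adrenal and 0.55 in hypothalamus.

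**Figure D5:**
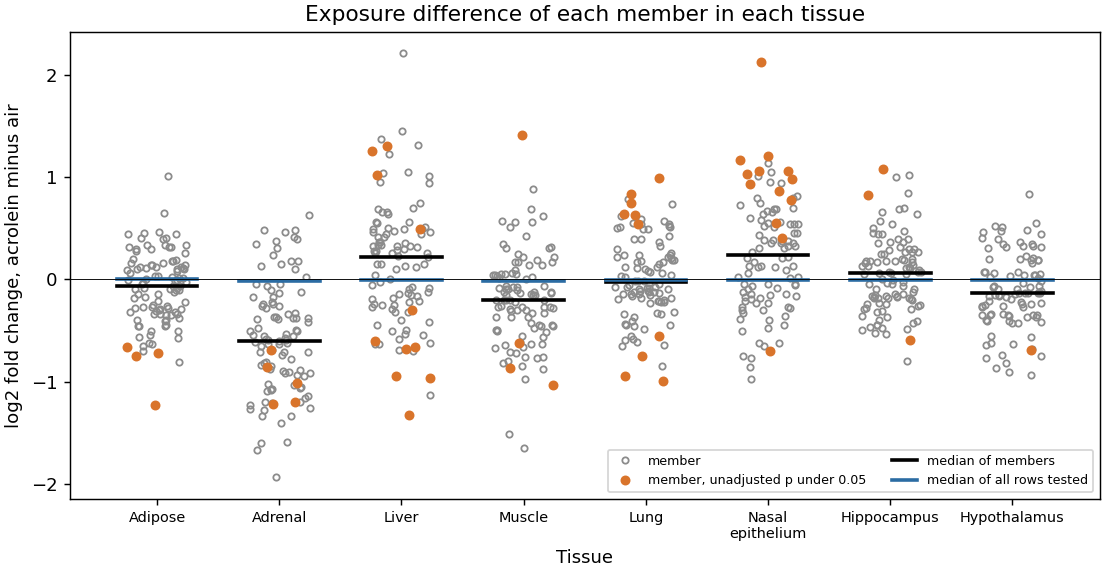
Log2 fold change, acrolein minus air, of each tested member in each tissue (limma on log2(value + 1)), with orange for an unadjusted p under 0.05. Black bars are the medians of the members and blue bars those of all rows tested. The adrenal members are centred at -0.60 and the nasal and liver members at 0.24 and 0.22, while the medians of all rows lie near 0. Most liver members were under 1 CPM in air.

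In the other 7 tissues limma also called 0 members. The share of all rows called was 0% in adrenal, hippocampus, hypothalamus and muscle, 0.368% in liver (69 of 18769), 0.00499% in lung (1 of 20052) and 0.651% in nasal epithelium (132 of 20289). Other tools called some. DESeq2 on recovered reads called 8 members in liver (5 lower, 3 higher), where it called 8.28% of rows, 2 in lung (1 lower, 1 higher; 0.463% of rows) and 3 in nasal epithelium (3 higher; 2.2% of rows). edgeR called 2 members in liver (2 higher), where it called 1.53% of rows. In liver these shares of members, 7.62% by DESeq2 and 1.92% by edgeR, are near the background.

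At an unadjusted p under 0.05 by limma, the nasal epithelium had 13 of 104 tested members (12.5%), 1 lower and 12 higher, against 12.2% of all rows. The liver had 11 of 104 (10.6%), 7 lower and 4 higher, against 19.2%. The lung had 10 of 104 (9.62%), 4 lower and 6 higher, against 7.67%. Muscle had 4 of 105 (3.81%) against 2.99%, the hippocampus 3 of 103 (2.91%) against 4.31%, and the hypothalamus 1 of 99 (1.01%) against 2.69%. The shares were near or under those over all rows in each of these tissues.

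In the adrenal, 5 of 105 members (4.76%) had an unadjusted p under 0.05, all lower in acrolein, against 7.54% of all rows. The direction was more uniform than the p-values. A total of 89 of the 105 members (84.8%) were lower in acrolein, with a median log2 fold change of -0.60, against 51.2% of all rows and a median of -0.01. This direction is that of the summed level, which overlapped between the groups, and since the members varied together in this tissue they are not independent of each other. With a rat left out in turn the median ran from -0.27 without acrolein rat 11 to -0.95 without air rat 8. Without air rat 8, 37 members (35.2%) were under an unadjusted p of 0.05, against 12.3% of all rows in that fit, and still 0 were called.

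In muscle the median of the members was -0.20 with 73 of 105 lower. Without air rat 5 it was 0.12 with 40 of 105 lower, so the direction of the muscle values rested on that library. In nasal epithelium the median was 0.24 with 38 of 104 lower, and 0.14 without acrolein rat 14, the library with the highest nasal sum. In liver it was 0.22 with 43 of 104 lower, although the highest member lay the other way. The air mean in liver was under 1 CPM for 58 of the 105 members, so this median rests largely on rows of few reads. In lung and hippocampus the medians were -0.03 and 0.06, and in hypothalamus -0.13.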

How the data were processed

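RNA-seq tables of 8 rat tissues were used, 92 libraries in all. The methods name Partek Flow, the rn7 build and Ensembl gene models for mapping, and DESeq2 for the comparison. Each tissue has its own deposited table, and all hold the same 20508 rows. The unit is a signal made by the authors, who scaled the read count of each library by a size factor within its tissue. Whole reads were recovered from the step of each column, within a tolerance of 0.05 reads, and 100% of values came out whole. Depth limits the precision of low rows. Where 2 adipose air libraries carry the number 8, they were averaged and counted as 1 rat.

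CPM was each value over its column sum. Exposure was tested within a tissue with limma 3.58.1 (lmFit, eBayes with trend, R 4.3.3) on log2(value + 1), so fold changes of low rows are understated, with Benjamini-Hochberg adjustment over all tested rows. edgeR 4.0.16 (quasi-likelihood) and DESeq2 1.42.0 on recovered reads, other pseudocounts, filters and scalings, and leaving out each library were alternatives. The functions were tested on simulated data. Samples were grouped by their labels, which tie libraries to rats only by number, so p-values measure the spread between these libraries.

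The members and lists were chosen with earlier results of these data known. Rows named in the text were the 10 members of highest adipose level, the 5 rows on each side of each threshold, and the 2 members of smallest p in each direction; the leading member of each group by next tissue, the 2 of highest fold, the most variable one, the one with groups that did not overlap, and the one of lowest fold in acrolein libraries were added after values were seen. A total of 16 lists of marker and pathway genes had been fixed by symbol. They were not applied, because 0 of the 20508 row identifiers were found in the reference gene table used here. The tissue labels were therefore not checked against marker genes, and no sequence is shown. Rows enriched in each tissue were chosen by these labels, so they cannot check them.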

Additional observations from a re-analysis of the deposited data

Results flagged for a closer look

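In 8 of the 72 sets of values examined, each the libraries of 1 group on 1 measure, the highest library lay farther from its neighbour than Dixon's limit. Chance alone flags about 1 in 20 such sets, and the measures of a tissue share their libraries.

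Muscle gave 5 of the 8. Air rat 8 had a summed member level of 29473 CPM, with 6023 CPM next. Air rat 5 stood out on the sum without the 10 highest members, at 2196 CPM against 914 CPM next, and on the median member, at 6.16% of the adipose level against 2.38% next. Acrolein rat 15 stood out on the same measures, at 770 CPM against 544 CPM and at 2.06% against 1.35%. In air rat 8 most of the sum was in the top rows, while 37 of 83 members were also at least 2-fold above the median of the other libraries, against 62 of 83 in air rat 5. The shares of all rows were 19.4% and 25.7%.

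In nasal epithelium, acrolein rat 14 had a median member at 3.61% of the adipose level, with 2.16% next. In it 36 of the 105 members were higher than in each other nasal library, against 8.12% of rows with at least 1 CPM. Only 71 of the 105 members were at that level, so these shares have unlike bases. In liver, air rat 5 had a median member at 0.808%, with 0.368% next. In hippocampus, acrolein rat 14 had a sum without the 10 highest members of 644 CPM, with 548 CPM next.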

How the results depend on the processing

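Members called in adipose stayed at 0 under each of the 18 alternatives, including each rat left out. Members at an unadjusted p under 0.05 in adipose, 4 by limma, were 10 by DESeq2 and 3 to 17 with a rat left out, 17 without air rat 8. In the 7 other tissues together, 0 members were called by limma, against 2 over rows averaging 10 or more (both in liver, 2.39% of rows called), 1 once libraries were brought to equal totals (in nasal epithelium, 0.591% of rows), 2 by edgeR and 13 by DESeq2. With a library left out this count ran from 0 to 7, with 7 without liver air rat 5 (9.31% of all rows called), 4 without liver air rat 7 (5.04%), 3 without nasal acrolein rat 11 (1.41%) and 1 without nasal air rat 4 (1.26%). In muscle, edgeR put 83 of 105 members lower, with 15 at an unadjusted p under 0.05, and limma 73 with 4. By limma 51.7% of all muscle rows were lower and 2.99% were under 0.05. The shares of all muscle rows by edgeR are not given here, so its counts are not read as a result about the members. The cause of the differences between these counts was not tested.

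The number of members was 199 at 3-fold and 47 at 10-fold. With the deposited values unrescaled it was 71, of which 59 were among the 105. With an air library left out it ran from 101 to 108. Without adipose air rat 1 it was 101, of which 98 were among the 105. Without adipose air rat 8 it was 108, of which 99 were among them. Members meeting the rule in acrolein libraries were 87, and 51 at 10-fold and 57 with unrescaled values.

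The air mean of the summed level, as a percent of that of adipose, was 5.14% in liver, 3.36% in lung, 1.11% in nasal epithelium, 0.771% in hippocampus and 0.81% in hypothalamus. Without the 10 highest members it was 1.77%, 4.36%, 3.49%, 2.16% and 2.80%. As a median over members it was 0.433%, 4.94%, 1.98%, 0.917% and 1.17%. Liver was thus above lung by the sum and below it by the other 2 measures.

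The log2 fold changes of the 2 members with the smallest p in each direction kept their direction in each alternative. No paired analysis was possible because rats of different exposure groups carry different numbers. Depth limits rows near 1 CPM, most of all in the shallow library of adipose air rat 8, where 3 reads are 1.19 CPM.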
